A study of Mus musculus with 8 samples.

Results

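The cytosolic ribosomal proteins are the proteins of the large (60S) and small (40S) ribosomal subunits. In the hepatic RNA-seq counts, 88 protein-coding genes were taken by their symbols (Rpl or Rps followed by a number, Rplp0 to Rplp2, and Rpsa, leaving out the ribosomal S6 kinases), of 13939 protein-coding genes and 18095 genes in the table. The symbols assigned 53 genes to the large subunit and 35 to the small subunit. The symbol rule also took Rps19bp1, which encodes a binding partner of Rps19 and not a subunit of the ribosome, and 4 genes with pseudogene-style symbols that are annotated as protein-coding (Rpl10-ps3, Rpl36a-ps1, Rpl9-ps6 and Rps12-ps3). All 88 genes passed the filter on low counts and were tested.

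The livers came from males aged 12 weeks, 4 HFD WT and 4 HFD Inpp4b-/-. Inpp4b encodes a lipid phosphatase of the phosphoinositide 3-kinase pathway. Both genotypes were on the high-fat diet (HFD), which the dams received from before mating and the pups kept after weaning. The sample labels give a C57BL/6 background for all mice, while the study's methods name FVB animals. The deletion was present in the whole animal, so the liver values do not separate hepatic from systemic loss of the gene.

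Total counts ranged from 25893430 to 31427831 in HFD WT and from 32738435 to 36662531 in HFD Inpp4b-/- libraries. Inpp4b itself had 6, 20, 5 and 8 counts in the HFD WT libraries and 33, 10, 9 and 14 counts in the libraries labelled HFD Inpp4b-/-. The targeted gene was therefore not lower in the libraries labelled knockout, it was below the filter on low counts, and every direction given here rests on the labels. Hepatocyte markers such as Alb and Ttr summed to between 73391 and 95186 CPM (counts scaled to a library of 1000000) in the 8 libraries. In bulk tissue, fewer cells of a type and less RNA per cell cannot be told apart.

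Ribosomal proteins bind the ribosomal RNAs in fixed stoichiometry, and most mammalian ribosomal protein mRNAs start with a terminal oligopyrimidine (TOP) tract, a cytosine followed by a run of pyrimidines at the cap. Translation of TOP mRNAs is controlled by the mTORC1 kinase and the RNA-binding protein Larp1, downstream of insulin and phosphoinositide 3-kinase signalling. Ribosomal protein genes are also known for their many processed pseudogenes, so that reads of nearly identical copies may be assigned to one or another locus.

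The annotated start sites were searched for such a tract. RefSeq promoters of GRCm38.p6, holding 250 bases before and 50 bases after the annotated start, were found for 64 of the 88 genes. A cytosine opening a run of at least 6 pyrimidines on the coding strand, between 20 bases before and 30 bases after the start, was present in 46 of 64 ribosomal protein genes (71.9%) and in 37.8% of 26961 other genes. The sequence CCGGAAG, the core recognised by ETS factors, was present on either strand of the 300 bases in 25 of 64 ribosomal protein genes (39.1%) and in 9.86% of the other genes. These matches are a description of the annotated windows. Windows of 6 genes are shown because the run lies at the annotated start, from 10 bases before to 20 bases from the start, with the pyrimidine run in capitals.
Rplp2 (chr7:141447641-141447670, plus strand): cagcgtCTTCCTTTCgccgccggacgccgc
Rps6 (chr4:86857348-86857377, minus strand): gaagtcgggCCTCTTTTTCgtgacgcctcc
Rpl38 (chr11:114668570-114668599, plus strand): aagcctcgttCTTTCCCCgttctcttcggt
Rps27 (chr3:90213629-90213658, minus strand): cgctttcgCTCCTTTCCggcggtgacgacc
Rpl13a (chr7:45128726-45128755, minus strand): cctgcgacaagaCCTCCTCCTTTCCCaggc
Rpl35a (chr16:33056472-33056501, plus strand): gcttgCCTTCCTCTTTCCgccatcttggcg
The run began exactly at the annotated start in Rpl38 and within 5 bases of it in the others, and it was 8 to 14 bases long.

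No ribosomal protein gene was called changed between the genotypes, but most had a small negative log2 fold change (HFD Inpp4b-/- over HFD WT). Of the 88 genes, 79 were lower and 9 higher. The median was -0.12 on the log2 scale, beside 0.003 over 14866 tested genes, of which 49.6% were lower. A call required a Benjamini-Hochberg adjusted p under 0.10 over all tested genes and a fold change over 1.3, by edgeR's quasi-likelihood test. By this rule 0 of 88 ribosomal protein genes were called, beside 1.17% of all tested genes, and 0 were called by DESeq2, which called 4.04% of all genes to which it gave an adjusted p. An unadjusted p under 0.05 in edgeR was reached by 12 lower and 1 higher ribosomal protein genes. That is 13.6% and 1.14% of the 88, beside 7.14% and 6.8% of all tested genes in edgeR. In DESeq2 it was reached by 18 lower and 1 higher, and the share over all genes in DESeq2 was not counted.

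**Figure D1:**
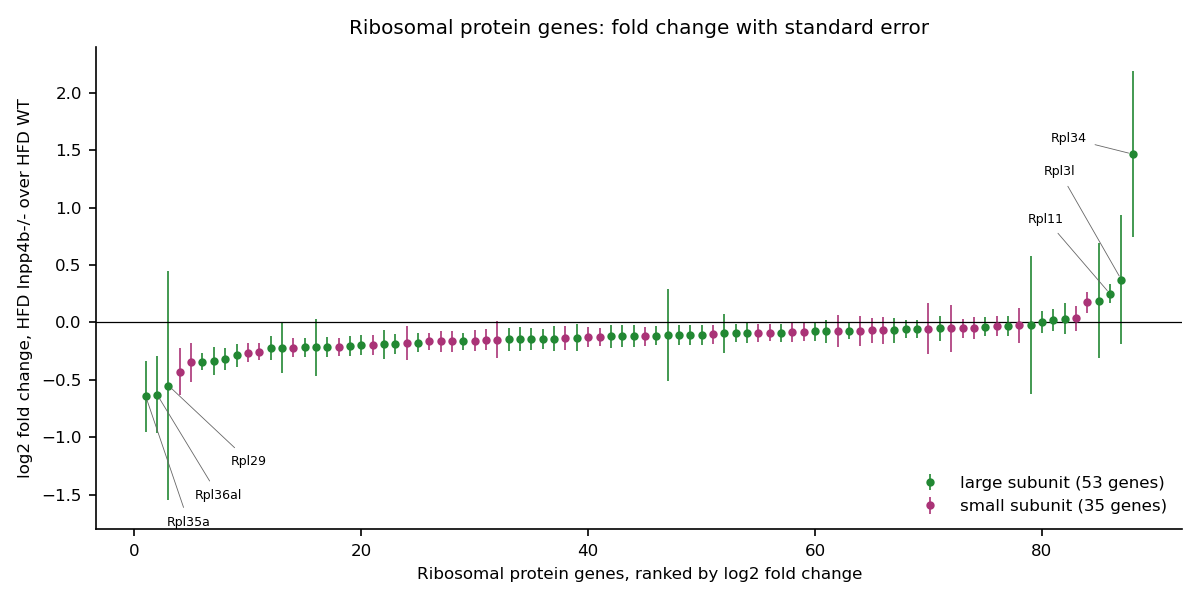
Each point is 1 of the 88 ribosomal protein genes, ranked along the x axis, and the y axis gives its log2 fold change in HFD Inpp4b-/- over HFD WT livers (n = 4 each) with the standard error as a bar. Of the points, 79 lie below zero, and the genes at both ends of the ranking (Rpl35a, Rpl36al and Rpl29, and Rpl34 and Rpl3l) have wide errors.

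The values of the 2 subunits were alike in size. Among the 53 large-subunit genes 46 were lower (median -0.12 on the log2 scale), and among the 35 small-subunit genes 33 were lower (median -0.12). The log2 ratio of the summed CPM of the large-subunit genes to that of the small-subunit genes was 0.61, 0.64, 0.61 and 0.53 in HFD WT and 0.60, 0.58, 0.60 and 0.65 in HFD Inpp4b-/- livers. The group values were 0.599 ± 0.046 and 0.607 ± 0.032 (SD, n = 4 each), and the groups overlapped. A difference in ratio of 0.01 on the log2 scale was smaller than the spread within either genotype.

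Ribosomal protein genes held 1.44%, 1.297%, 1.40% and 1.45% of all counts in HFD WT and 1.24%, 1.31%, 1.28% and 1.29% in HFD Inpp4b-/- libraries. The means were 1.40% ± 0.070 and 1.28% ± 0.028 (SD, n = 4 each), and 1 HFD WT library (replicate 2) lay among the HFD Inpp4b-/- libraries while the other 3 lay above all of them. The median deviation of the 88 genes from their own means, on the log2 scale, was 0.15, -0.06, 0.02 and 0.12 in HFD WT, where replicate 2 was the lowest, and -0.14, -0.11, 0.02 and -0.01 in HFD Inpp4b-/-. The groups thus overlapped in the level of the whole set. Without HFD WT replicate 2 the median log2 fold change was -0.18 with 82 of 88 lower, and without HFD WT replicate 4 it was -0.08 with 70 of 88 lower.

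**Figure D2:**
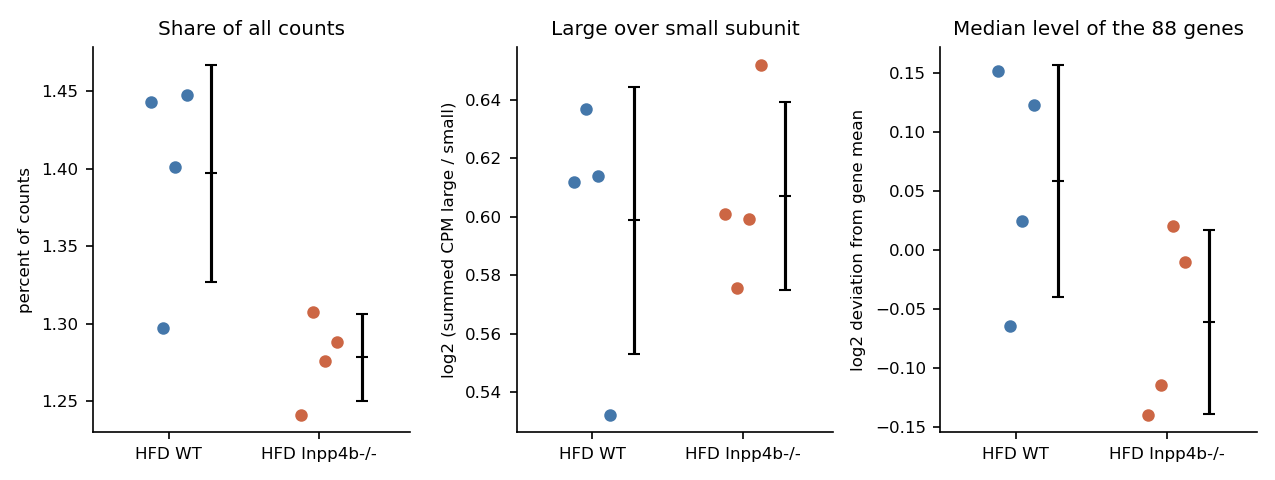
Each coloured point is 1 liver library, and the black bars give mean and SD (n = 4 per genotype), for the percent of all counts in the 88 genes (left), the log2 ratio of summed CPM of large to small subunit genes (middle) and the median log2 deviation of the 88 genes from their means (right). The y axes do not start at zero; the shares are 1.40% and 1.28% on average, and 1 HFD WT library lies among the HFD Inpp4b-/- libraries in the left panel.

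The stalk of the large subunit recruits the translation factors and consists of Rplp0, which anchors it, and the acidic proteins Rplp1 and Rplp2, next to Rpl12 at its base. Rplp0 was at 407, 368, 379 and 368 CPM in HFD WT and at 295, 297, 301 and 307 CPM in HFD Inpp4b-/- livers. The groups did not overlap. The log2 fold change of Rplp0 was -0.34 ± 0.07 (SE), with an edgeR adjusted p of 0.0942. Rplp0 was the only ribosomal protein gene with an adjusted p under 0.10 in that test, 1 of 88, beside 181 of 14866 tested genes. The fold of 1.27 was below the threshold, so that Rplp0 was not called. DESeq2 gave Rplp0 an adjusted p of 4.5e-04, likewise with a fold below the threshold. It gave 4 members an adjusted p under 0.10, and the share over all genes at that threshold alone was not counted. With the reads of 2 near-identical copies added, Rplp0 had a log2 fold change of -0.31 ± 0.08 and an edgeR adjusted p of 0.131, and the groups did not overlap. Leaving out single libraries gave edgeR adjusted p from 0.0869 to 0.249.

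Rpl12 was at 159, 134, 147 and 158 CPM in HFD WT and at 106, 116, 129 and 138 CPM in HFD Inpp4b-/- livers. The groups overlapped by 1 library, and the log2 fold change was -0.29 ± 0.10 (edgeR adjusted p 0.26). Rplp1, the member with the highest level per kilobase of exon, had a log2 fold change of -0.15 ± 0.10 and Rplp2 of -0.18 ± 0.09, with edgeR adjusted p of 0.545 and 0.387. All 4 stalk genes were on the lower side, as were 79 of all 88 ribosomal protein genes (89.8%), with none called. Rpl12 was outside the rule by which genes were named.

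Among the 88 genes, 10 had every HFD Inpp4b-/- library below every HFD WT library (11.4%, beside 4.09% of all tested genes), and 1 had the reverse (1.14%, beside 4.63%). The 10 genes included Rplp0, Rpl5, Rpl7l1, Rpl8 and Rpl10a of the large subunit and Rpsa, Rps3, Rps3a1 and Rps4x of the small subunit, and the 1 gene was Rpl11. Rpl8 and Rpl10a are singled out here after their values were seen.

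Rpsa, the 40S protein also known as the laminin receptor precursor, was at 432, 393, 424 and 416 CPM in HFD WT and at 319, 336, 355 and 375 CPM in HFD Inpp4b-/- livers. Rps4x, an X-linked 40S protein, was at 222, 200, 217 and 211 CPM in HFD WT and at 166, 180, 183 and 184 CPM in HFD Inpp4b-/- livers. The log2 fold changes were -0.26 ± 0.08 and -0.25 ± 0.08, with edgeR adjusted p of 0.211 and 0.195. Rpl7l1, a paralog of Rpl7 that acts in the assembly of the large subunit, had 90.4, 71.0, 73.3 and 76.6 CPM in HFD WT and 59.7, 63.2, 65.6 and 61.1 CPM in HFD Inpp4b-/- livers. Its log2 fold change was -0.32 ± 0.09 (edgeR adjusted p 0.188), while that of Rpl7 was -0.06 ± 0.08. None of these passed the threshold.

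**Figure D3:**
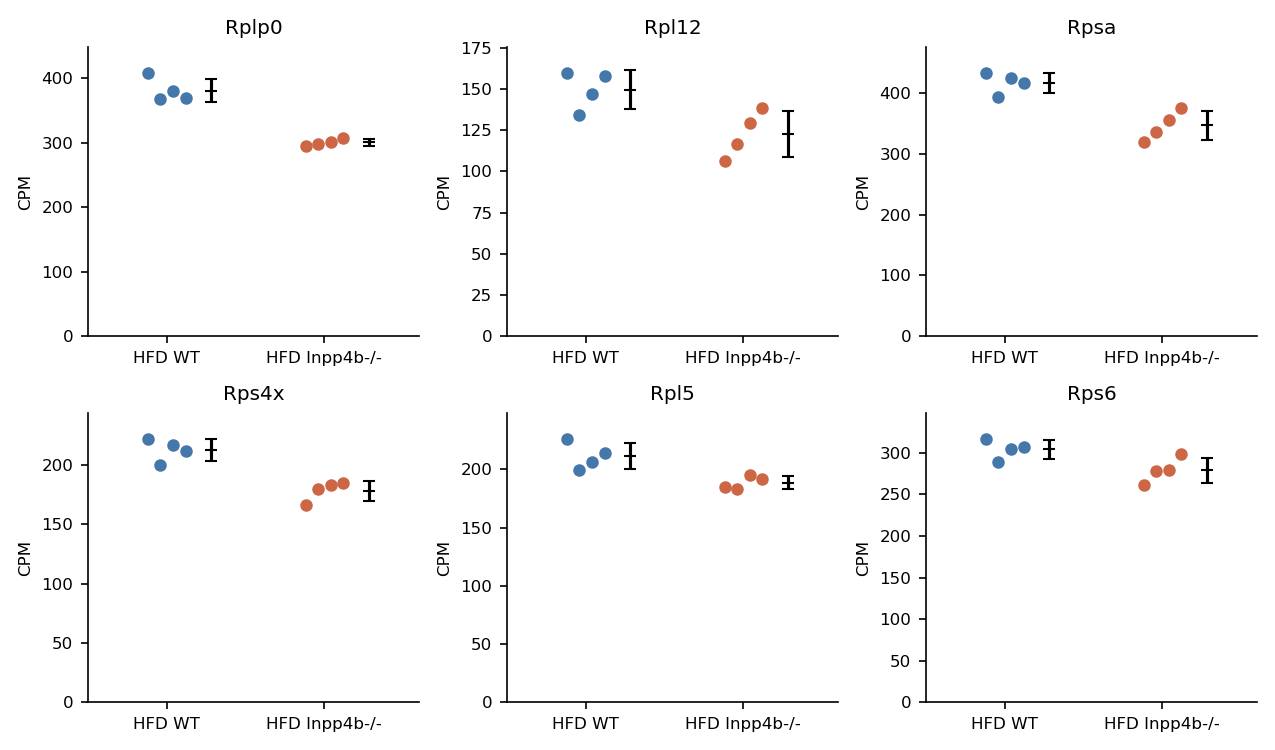
Each point is 1 liver library and the y axis, which starts at 0, gives TMM-scaled CPM for 6 members, with black bars for mean and SD (n = 4 per genotype). The groups do not overlap for Rplp0, Rpsa, Rps4x and Rpl5, and they overlap for Rpl12 and Rps6.

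Members with known roles outside elongation had small values. Rpl5 and Rpl11, which form with the 5S rRNA the particle that binds Mdm2 and stabilises p53, differed in sign, at -0.16 ± 0.08 and 0.25 ± 0.08 on the log2 scale, with edgeR adjusted p of 0.37 and 0.229. Rps6, the substrate of the S6 kinases, was at 316, 289, 304 and 307 CPM in HFD WT and at 261, 278, 279 and 298 CPM in HFD Inpp4b-/- livers, a log2 fold change of -0.12 ± 0.08. Rps3, a 40S protein that also takes part in DNA repair, had a log2 fold change of -0.21 ± 0.08. Rps19, whose loss causes Diamond-Blackfan anaemia, had -0.08 ± 0.08, Rpl10, a late-joining 60S protein, -0.08 ± 0.08, and Rpl38, which affects translation of Hox mRNAs, 0.03 ± 0.14. Rpl13a, linked to the control of inflammatory mRNAs, had -0.22 ± 0.22.

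Per kilobase of exon, mean levels were highest for Rplp1 at 628, Rpl36 at 490, Rps15 at 322, Rps3a1 at 288, Rpl41 at 268 and Rpl10 at 243 (RPKM, over all 8 libraries). Their log2 fold changes lay between -0.17 for Rps3a1 and 0.01 for Rpl36. At the other end were Rpl3l, the striated-muscle paralog of Rpl3, at 0.289, and Rpl24 at 0.466. Rpl24 is listed at a low level although it is a core 60S protein. Its means were 0.486 CPM in HFD WT and 0.473 CPM in HFD Inpp4b-/- livers. Of the reads of Rpl24 and its listed copies, 73.9% fell on the copies. The sum with the copies was still low, so these copies do not hold the level of a typical core member.

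Paralogs differed in level more than in fold change. Rpl3l had 0.192 to 0.693 CPM in HFD WT and 0.197 to 0.777 CPM in HFD Inpp4b-/- livers, beside means of 172 and 136 CPM for Rpl3. Rps27l, a p53-responsive paralog of Rps27, was at 165, 141, 168 and 182 CPM in HFD WT and at 178, 191, 193 and 181 CPM in HFD Inpp4b-/- livers, with a log2 fold change of 0.18 ± 0.09 (edgeR adjusted p 0.428). Rps27 had -0.07 ± 0.12 and Rps27rt, a retrogene of Rps27, -0.02 ± 0.15. Rpl22 and Rpl22l1 had -0.07 ± 0.07 and -0.21 ± 0.25. Rpl36a and Rpl36al had -0.12 ± 0.10 and -0.63 ± 0.33, and Rpl36al was below 3 CPM in each library. Rpl39 had -0.19 ± 0.13, and Rpl10l, Rpl39l and Rps4l were not among the members.

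Many members shared coding sequence with other annotated genes. Such sharing does not show how many reads of 150 bases could not be assigned to 1 locus, which was not measured. Of the 88 genes, 72 had at least 1 listed copy in the count table (246 in all, in the GENCODE M21 annotation). Listed copies were pseudogenes, or genes with a Gm or -ps symbol. Each shared 20% or more of the 50-base words of a member's coding sequence. Members were not listed as copies, and each copy was given to 1 member only. A member without a listed copy can thus still share its words with other genes, as Rps12-ps3 did for 100% of them. The listed copies held 0.144% to 0.170% of all counts, beside the 1.24% to 1.45% in the members themselves. The way in which multiply aligned reads were counted was not given in the sources used here. Values of a member and its nearest copy are therefore set side by side for the genes at the ends of the ranking.

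Rpl34 had the highest log2 fold change, 1.47 ± 0.72 (edgeR adjusted p 0.402), and 1 library carried it. Rpl34 was at 7.97, 6.52, 8.32 and 10.8 CPM in HFD WT and at 7.16, 8.38, 7.40 and 69.8 CPM in HFD Inpp4b-/- livers. Rpl34-ps1, a processed pseudogene on chromosome 6, was at 187, 159, 169 and 147 CPM in HFD WT and at 142, 153, 145 and 78.2 CPM in HFD Inpp4b-/- livers. The same library, HFD Inpp4b-/- replicate 4, was the highest for Rpl34 and the lowest for Rpl34-ps1. With the reads of 3 listed copies summed into Rpl34, its values were 196, 166, 178 and 159 CPM in HFD WT and 150, 162, 153 and 149 CPM in HFD Inpp4b-/- livers, a log2 fold change of -0.18 ± 0.09 (edgeR adjusted p 0.38).

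Rpl34 and Rpl34-ps1 are shown because only 2 bases tell their coding sequences apart over 351 aligned bases. Stretches of 30 bases of the GENCODE M21 transcripts (GRCm38, coding strand) are given around each differing base, which is in capitals, counted from the first base of the start codon. The substitutions, with the base of Rpl34 first, were T132C and C318G.
Rpl34 (chr3:130726831-130730398, minus strand), first difference: gaaagcacctaaatcTgcatgtggcgtgtg
Rpl34-ps1 (chr6:71124610-71124963, plus strand), first difference: gaaagcacctaaatcCgcatgtggcgtgtg
Rpl34, second difference: aatcgttgtgaaagtCttgaaggcacaagc
Rpl34-ps1, second difference: aatcgttgtgaaagtGttgaaggcacaagc
The longest stretch of identical bases between both was 185 bases, longer than a read of 150 bases. Reads were paired, and the share of pairs lying wholly within that stretch was not measured.

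Rpl3, which lies next to the peptidyl transferase centre, showed the like on the other side. Rpl3 was at 186, 201, 154 and 145 CPM in HFD WT and at 128, 122, 152 and 143 CPM in HFD Inpp4b-/- livers. Rpl3-ps1, on chromosome X, was at 93.9, 51.0, 83.7 and 72.9 CPM in HFD WT and at 65.4, 66.2, 76.2 and 77.0 CPM in HFD Inpp4b-/- livers. HFD WT replicate 2 was the highest library for Rpl3 and the lowest for Rpl3-ps1. The log2 fold change of Rpl3 was -0.33 ± 0.12 (edgeR adjusted p 0.273), and -0.25 ± 0.10 with 3 listed copies summed. The coding sequences differed at 2 of 1209 aligned bases, C57A and T786C with the base of Rpl3 first.
Rpl3 (chr15:80077791-80091868, minus strand), first difference: gggcttcctgcctcgCaagcgcagcagccg
Rpl3-ps1 (chrX:13202571-13203780, plus strand), first difference: gggcttcctgcctcgAaagcgcagcagccg

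Rpl11 was the 1 member with all HFD Inpp4b-/- libraries above all HFD WT libraries. Rpl11 was at 203, 179, 191 and 191 CPM in HFD WT and at 223, 211, 249 and 225 CPM in HFD Inpp4b-/- livers. Gm10036, a processed pseudogene on chromosome 18 (15832794 to 15833327, plus strand), differed from the Rpl11 coding sequence at 4 of 534 aligned bases. It was at 31.8, 20.3, 28.9 and 62.6 CPM in HFD WT and at 0.999, 0.736, 1.09 and 0.590 CPM in HFD Inpp4b-/- livers. Gm10036 was called lower, with a log2 fold change of -5.39 ± 0.39 and an edgeR adjusted p of 7.1e-04.

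The sum over Rpl11 and its 5 listed copies was 238, 202, 222 and 257 CPM in HFD WT and 226, 214, 254 and 230 CPM in HFD Inpp4b-/- livers. The groups of the summed values overlapped, and the log2 fold change was 0.01 ± 0.10 (edgeR adjusted p 0.981). Rpl11 and Gm10036 thus separated the genotypes in opposite directions, and the sum over Rpl11 and its listed copies did not separate them. Whether reads were exchanged between these loci was not tested.

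Fau, which encodes a ubiquitin-like protein fused to Rps30, and the 40S protein Rack1 are outside the symbol rule. Fau and Rack1 had log2 fold changes of -0.06 ± 0.08 and -0.21 ± 0.09, and neither was called by edgeR.

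**Figure D4:**
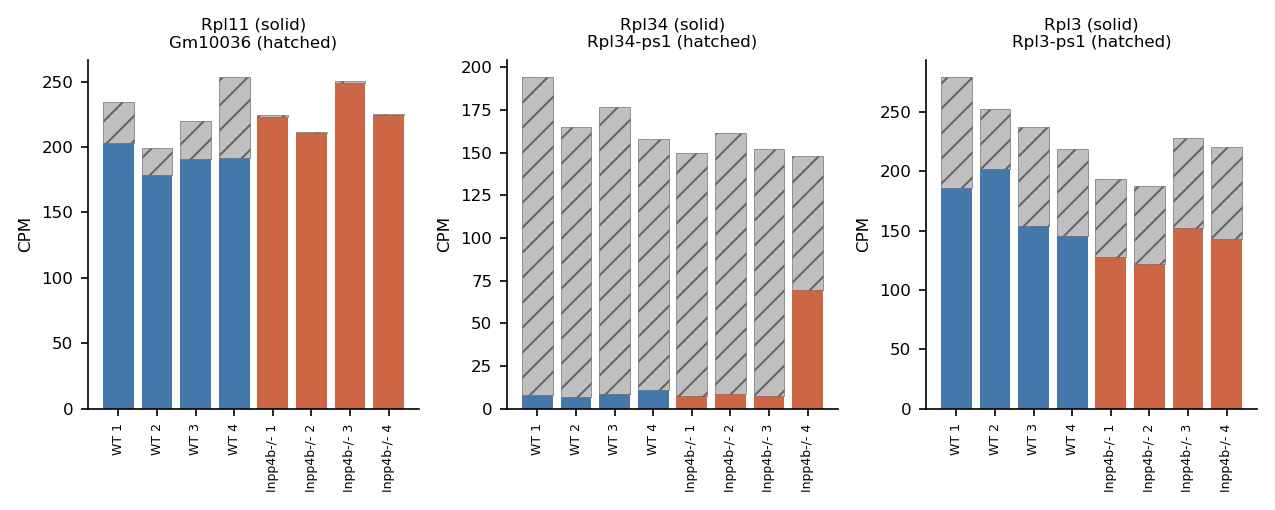
Stacked bars give TMM-scaled CPM (y axis from 0) in each of the 8 livers for a ribosomal protein gene (solid, blue for HFD WT and orange for HFD Inpp4b-/-) and its near-identical copy (hatched). The hatched part of Rpl11 is almost absent in the HFD Inpp4b-/- livers, and the solid part of Rpl34 is enlarged in HFD Inpp4b-/- replicate 4 alone, at 69.8 CPM.

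The other members with the lowest fold changes varied from mouse to mouse within both genotypes. Rpl29, a 60S protein, was at 80.7, 73.6, 78.7 and 6.22 CPM in HFD WT and at 3.88, 73.8, 4.28 and 81.3 CPM in HFD Inpp4b-/- livers. Each library was either above 70 or below 7 CPM, with 1 low library in HFD WT and 2 in HFD Inpp4b-/-. The log2 fold change was -0.55 ± 0.99 (edgeR adjusted p 0.847), and summing 6 listed copies left the low libraries at 16.7 to 21.7 CPM.

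Rpl35a, a 60S protein mutated in some cases of Diamond-Blackfan anaemia, was at 92.1, 74.7, 91.0 and 46.0 CPM in HFD WT and at 40.3, 36.1, 83.0 and 35.2 CPM in HFD Inpp4b-/- livers. It had the lowest log2 fold change, -0.64 ± 0.31 (edgeR adjusted p 0.387), with 1 library of each genotype on the side of the other. Rps27a, which encodes ubiquitin fused to a 40S protein, was at 192, 134, 148 and 110 CPM in HFD WT and at 132, 102, 126 and 74.3 CPM in HFD Inpp4b-/- livers, a log2 fold change of -0.43 ± 0.20 (edgeR adjusted p 0.387). Rps12-ps3 had -0.35 ± 0.17 and Rpl36a-ps1 0.19 ± 0.50, and the groups overlapped for each of these genes.

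Summing the copies changed single members but not the set. With the reads of all listed copies summed, 81 of 88 genes were lower, and the median log2 fold change was -0.12 (0.003 over 14717 tested genes). By edgeR 0 of the 88 were called, beside 165 of the 14717. At an unadjusted p under 0.05 in edgeR, 12 were lower and 0 higher (13.6% and 0%, beside 7.20% and 6.79% of the tested genes). For Rps2, whose copies held 87.96% of the summed reads, the log2 fold change went from 0.04 to -0.12. The 35 members with under 1% of the summed reads in copies had a median of -0.12 with 30 lower, and the other 53 had a median of -0.12 with 49 lower.

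Members of every coding length were lower in the median, while other short protein-coding genes were higher in the median. The 11 ribosomal protein genes with a coding sequence under 300 bases were at -0.13 in the median, on the log2 scale of the fold change, while 262 other protein-coding genes of that length had 0.09. From 300 to 450 bases the medians were -0.11 for 32 ribosomal protein genes and 0.08 for 558 others, and from 450 to 600 bases they were -0.09 for 20 and 0.03 for 747. From 600 to 1300 bases they were -0.18 for 25 ribosomal protein genes and 0.02 for 4244 others. The median deviation of the 11 members under 300 bases ranged from -0.22 in HFD WT replicate 2 to 0.23 in HFD WT replicate 4. That of the 262 other genes was -0.11 and -0.0007 in these libraries. Their highest value was 0.15 in HFD Inpp4b-/- replicate 3, where the members had 0.19.

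Genes that act with the ribosomal proteins were taken as lists. Ribosome biogenesis factors, which transcribe, process and assemble the pre-rRNA, numbered 54. Of these, 49 were lower and 1 was called (beside 1.17% of all tested genes), and their median log2 value was -0.22. The called gene was Tsr1, a factor of 40S maturation, at 11.7, 13.9, 12.6 and 14.2 CPM in HFD WT and at 9.05, 8.67, 9.43 and 9.18 CPM in HFD Inpp4b-/- livers. Its log2 fold change was -0.53 ± 0.11, with an edgeR adjusted p of 0.0805, and this fell outside the threshold when any library except HFD WT replicate 2 was left out. At an unadjusted p under 0.05 in edgeR, 18 of the 54 were lower (33.3%) and 0 higher, beside 7.14% and 6.8% of all tested genes. The median deviation of the 54 genes was 0.19, -0.07, 0.12 and 0.27 in HFD WT and -0.22, -0.02, -0.08 and -0.15 in HFD Inpp4b-/- livers. HFD WT replicate 2 thus lay among the HFD Inpp4b-/- libraries, and the groups overlapped.

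Other genes with TOP mRNAs, among them elongation and initiation factors, numbered 15. Of these, 12 were lower with a median of -0.14, and 0 were called by edgeR. At an unadjusted p under 0.05 in edgeR, 5 were lower (33.3%) and 0 higher, beside 7.14% and 6.8% of all tested genes. Eef1a1, the elongation factor that brings aminoacyl-tRNA, was at 3311, 3092, 3208 and 3023 CPM in HFD WT and at 2873, 2811, 2694 and 2858 CPM in HFD Inpp4b-/- livers, a log2 fold change of -0.17 ± 0.09 (edgeR adjusted p 0.432). Eef2, the translocation factor, had -0.23 ± 0.09 and Tpt1, the translationally controlled tumour protein, -0.11 ± 0.09. The 15 genes listed as regulators of TOP mRNA translation had a median of 0.04, with 7 lower and 8 higher and 0 called by edgeR. At an unadjusted p under 0.05 in edgeR, 1 was lower (Larp1) and 1 higher (Myc). Larp1 had a log2 fold change of -0.23 ± 0.08 (edgeR adjusted p 0.247), the lowest of the list, and its groups did not overlap. Larp1 was outside the rule by which genes were named.

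The list of regulators also held Myc, which drives transcription of ribosomal genes. Myc was at 2.84, 3.81, 2.12 and 2.34 CPM in HFD WT and at 22.4, 4.20, 3.57 and 10.5 CPM in HFD Inpp4b-/- livers. Its log2 fold change was 1.87 ± 0.55 with an edgeR adjusted p of 0.187, and DESeq2 called it with an adjusted p of 0.00958. Among snoRNA host genes, whose spliced RNAs often carry a TOP tract, 6 of 7 were tested with a median of 0.11, 4 higher and 0 called by edgeR (0 at an unadjusted p under 0.05), and Gas5 had -0.01 ± 0.12.

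**Figure D5:**
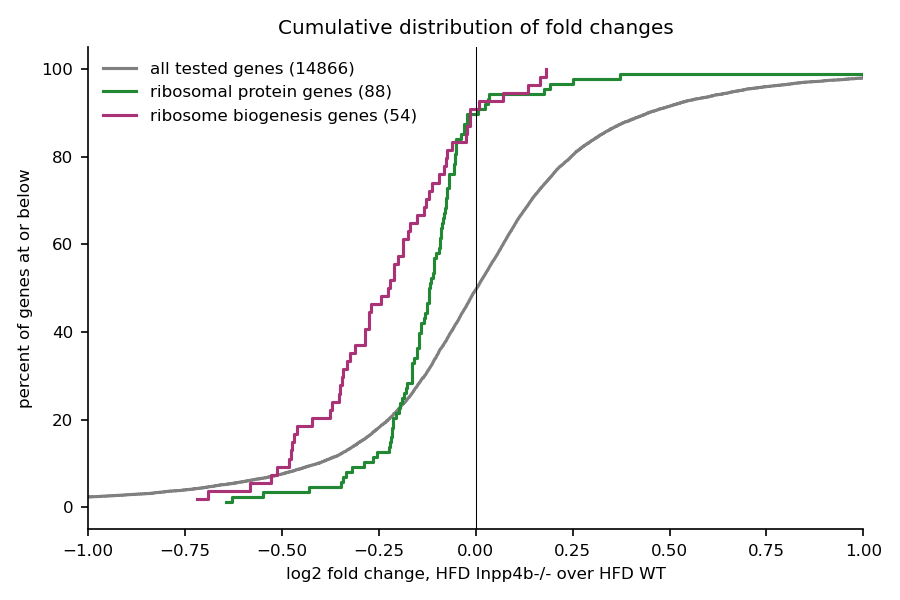
Lines give the percent of genes (y axis) at or below a log2 fold change of HFD Inpp4b-/- over HFD WT livers (x axis, cropped at -1 and 1) for all tested genes, the 88 ribosomal protein genes and the 54 ribosome biogenesis genes. The medians are 0.003, -0.12 and -0.22.

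Markers of other liver cells are given beside these values, and their part in the ribosomal protein levels was not tested. Of Kupffer cell markers, 6 of 7 were higher (median 0.44, summed 47.8 to 144 CPM in HFD WT and 101 to 182 CPM in HFD Inpp4b-/-), of cholangiocyte markers 4 of 5 (median 0.49, 23.7 to 31.6 and 29.7 to 40.6 CPM) and of stellate cell markers 5 of 8 (median 0.29, 98.9 to 123 and 97.7 to 156 CPM). Leukocyte markers were tested for 6 of 8 (4 higher, median 0.19, 4.51 to 12.9 and 6.35 to 10.3 CPM), Cd3e not being in the table and Nkg7 being below the filter. Endothelial markers had a median of -0.07 with 1 of 5 higher (96.3 to 122 and 81.9 to 126 CPM), and hepatocyte markers of -0.05 with 2 of 5 higher (73391 to 80592 and 76826 to 95186 CPM).

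Erythroid markers had a median of 0.10 with 3 of 5 higher (114 to 431 and 208 to 346 CPM), and 1 of them, Hba-a2, an alpha-globin gene, was called lower (log2 fold change -2.92 ± 0.54, edgeR adjusted p 0.057). This call was lost when any library except HFD WT replicate 2 or 4 was left out, and the log2 fold change then ranged from -3.24 to -2.59. Of RNAs without a poly(A) tail, 1 of 4 was tested, Rn7sk, with a log2 fold change of 0.85 ± 0.69. Its level was low, at 0.220 to 2.15 CPM in HFD WT and 0.777 to 3.54 CPM in HFD Inpp4b-/- livers. Rmrp and Rpph1 had no counts given, and Terc was below the filter. No gene of the Kupffer cell, leukocyte, endothelial, stellate cell, cholangiocyte and hepatocyte lists was called by edgeR.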

How the data were processed

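Total hepatic RNA of 4 HFD WT and 4 HFD Inpp4b-/- mice was depleted of rRNA with Ribo-Zero and sequenced as 150-bp paired ends. Per the labels and methods, the authors aligned reads to GRCm38 with HISAT2 and counted them per gene with HTSeq; the deposited raw counts were used, and 0 sample columns were unused. The release of the annotation and the strand setting were not given in the sources used here. A table of normalized values was not used. In the table, each of the 18095 genes had a read in every library of one or both genotypes, and all identifiers matched GENCODE M21.

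Counts were fitted across all genes with edgeR 4.0.16 (TMM, filterByExpr, quasi-likelihood test; R 4.3.3, limma 3.58.1), checked on simulated data. A call required an adjusted p under 0.10 and a fold over 1.3; DESeq2 1.42.0 was an alternative. CPM values are scaled by TMM, and deviations use log2(CPM + 0.1). RPKM was CPM per kilobase of the union of exons. Copies were pseudogenes, or genes with a Gm or -ps symbol, sharing at least 20% of the 50-base words of a member's coding sequence. Members were left out as copies, and each copy went to a single member. The members and lists were chosen with earlier results of these data known. Genes were named by a rule: called members, the 8 highest and 8 lowest fold changes, the 6 highest RPKM, members with a well-known role, paralog pairs, members below the filter, called genes of the lists with 8 others of them, and Inpp4b. Labels number the mice as replicates, so p-values measure the spread between these samples. The least chi-square per degree of freedom between libraries was 30.0, so no pair was treated as a duplicate. Precision is limited by the 4 libraries per genotype and by the depth of 25893430 to 36662531 counts, and low members such as Rpl24 rest on few reads. Results for some genes are not reported here.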

Additional observations from a re-analysis of the deposited data

Results flagged for a closer look

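A library stood apart from the other 3 of its genotype (by Dixon's 95% ratio of gap to range) in 11 of 194 groups examined, and chance gives about 1 in 20, that is 9.7. Those in HFD Inpp4b-/- replicate 4 were Rpl34 at 69.8 CPM (next library 8.38), its copy Rpl34-ps1 at 78.2 CPM (next 142) and Rpl36a-ps1 at 0.140 CPM (next 0.547). Rpl29 was at 6.22 CPM in HFD WT replicate 4 (next 73.6), and Rps10 was at 3.38 CPM in the same library (next 2.30) and at 2.18 CPM in HFD Inpp4b-/- replicate 2 (next 2.50). HFD Inpp4b-/- replicate 3 stood apart for Rpl35a at 83.0 CPM (next 40.3) and Rps29 at 201 CPM (next 136). The others were Rplp1 at 376 CPM in HFD WT replicate 1 (next 319), Rps3 at 234 CPM in HFD WT replicate 2 (next 254) and Rps18 at 14.9 CPM in HFD Inpp4b-/- replicate 1 (next 18.2).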

How the results depend on the processing

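The count of 0 called ribosomal protein genes held in every fit run. In the main edgeR fit it was 1 (Rplp0) with no fold threshold, and 0 with an adjusted p under 0.05. With no fold threshold DESeq2 gave 4, and the other fits gave 0 or 1 (0 with upper-quartile scaling, the replicate block and the summed copies). Leaving out single libraries, the median log2 fold change ranged from -0.18 to -0.08 over all members, from -0.18 to -0.08 for the large and from -0.17 to -0.07 for the small subunit, the subunit ratio difference from -0.01 to 0.02, and the share of counts difference from -0.15 to -0.10 percentage points (-0.12 with all libraries, and -0.055 without members that have a pseudogene of the same symbol stem, where fewer genes hold smaller shares, 0.651% in HFD WT and 0.595% in HFD Inpp4b-/-). Upper-quartile scaling gave a median of -0.09 and moved all genes to 0.03. The edgeR adjusted p of Rplp0 ranged from 0.0869 to 0.249. Called genes of the lists numbered 3, and 15 with DESeq2, 0 with the replicate block and 0 to 11 leaving out a library (11 without HFD WT replicate 2). Calls over all genes moved as well. They numbered 174, and 688 with DESeq2, 26 with the replicate block and 53 to 345 leaving out a library (345 without HFD WT replicate 2).

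The replicate numbers did not pair the mice. Same-numbered libraries correlated at -0.17 to -0.01 in their deviations and 0 of 8 libraries correlated best with their own number. With the replicate block the count of calls over all genes fell from 174 to 26, Rplp0 had an adjusted p of 0.36 and the median of the members was -0.12 with 79 lower.

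Signs turned for 10 named genes when a library was left out. Without single libraries the log2 fold changes ranged from -0.033 to 0.079 for Rpl19, -0.080 to 0.12 for Rpl38, -0.021 to 0.10 for Rps2, -0.13 to 1.77 for Rpl34, -0.073 to 0.056 for Rpl36, -0.085 to 0.016 for Rps15, -0.35 to 0.0057 for Rpl13a, -0.17 to 0.031 for Rps27, -0.092 to 0.12 for Rps27rt and -0.12 to 0.052 for Gas5. Summing copies turned Rps2 to -0.12 and Rpl34 to -0.18, by construction of the sum. DESeq2's size factors in edgeR and DESeq2 itself gave Rpl36 at -0.0037 and -0.0032, and upper-quartile scaling gave Rps27rt at 0.0037 and Gas5 at 0.013; the cause was not tested. Summed copies and leaving out Rps19bp1 with the 4 pseudogene-style members (median -0.12 over 83) were chosen after seeing the data. No member was below the filter, so that planned test gave no value.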
